A study of Mus musculus with 17 samples.

Results

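Enzymes that make foreign and endogenous lipophilic compounds soluble were followed in mouse lung as 135 genes of 5 families: cytochromes P450 (Cyp), flavin monooxygenases (Fmo), glutathione S-transferases (Gst), UDP-glycosyltransferases (Ugt) and sulfotransferases (Sult). Members were chosen by gene symbol alone, without Cyp51 and pseudogenes, among the 19751 genes that a probe set with 1 symbol measured. Another 26 symbols of these families stood only on probe sets shared with other genes and are not analysed here. The RNA came from lung tissue of 17 Balb/c mice, 1 Affymetrix Mouse Gene 1.0 ST array per mouse. In the saline group 6 mice were sensitized and challenged with saline. In the isotype group 5 mice were sensitized and challenged with ovalbumin, an egg protein used as an allergen, and given an isotype control antibody. The anti-RGMb group of 6 mice had the same ovalbumin treatment with a monoclonal antibody to RGMb, a membrane protein that takes part in bone morphogenetic protein signalling. The labels name no antibody for the saline mice, and no group among these samples had anti-RGMb without ovalbumin. Differences between isotype and saline mice therefore take in any effect of the control antibody. Lungs were taken at the same point of treatment in all groups. The mice formed 2 replicate sets, called experiments here: experiment 1 held 3 mice of each group, and experiment 2 held 3 saline, 3 anti-RGMb and 2 isotype mice, numbered 1-2, 2-2 and 3-2.

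P450 and flavin monooxygenase enzymes oxidize their substrates, which is named phase 1 of xenobiotic metabolism, and transferases join the products to glutathione, glucuronic acid or sulfate, which is named phase 2. Liver holds most of these enzymes, but in mouse lung the club cell of the small airway, rich in smooth endoplasmic reticulum, is a main site of P450 activity. Some P450 enzymes act on signalling lipids rather than on foreign compounds: family 4 hydroxylates leukotrienes and fatty acids, and others make or break down steroids and oxysterols.

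Values of a mouse are given as its log2 intensity minus the mean of the saline mice of its own experiment, named "above saline" below, because the array medians lay at 120 to 125 in experiment 1 and at 362 to 386 in experiment 2. Isotype mice are listed in the order 1, 2, 3, 1-2 and 2-2. For saline and anti-RGMb mice the lowest to the highest of 6 values and their median are given. Differences between groups are log2 differences ± standard error from 1 limma model over all 17 arrays with a term for the experiment, and p-values are 2-sided and Benjamini-Hochberg adjusted over all 19751 genes. A gene is said to be higher or lower, or to have risen or fallen, where adjusted p was under 0.05. Of the 135 members, 66 were dimmer than the lower quartile of all probe sets on every one of the 17 arrays and 47 were brighter than it on all of them. Dim members were most frequent among P450 families 1 to 3 (32 of 53 below the quartile on all arrays), sulfotransferases (11 of 16) and UDP-glycosyltransferases (9 of 11), and none of the 19 glutathione S-transferases was.

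Weights that limma estimates from each array's scatter around the fit set 3 arrays apart: isotype 2-2 (0.24), anti-RGMb 3-2 (0.26) and isotype 1-2 (0.38), against 0.77 to 1.86 for the others. They include both isotype mice of experiment 2. All 17 arrays stay in the values below. Without these 3, a choice made after the weights were seen, 37 members passed in place of 44 for isotype against saline mice, 18 in place of 30 for anti-RGMb against isotype mice and 16 in place of 12 for anti-RGMb against saline mice. Of these, 34, 17 and 10 were among the members that passed with all arrays, and the members whose calls ended are named with the results. In both comparisons with isotype mice, isotype mice of experiment 1 alone then remain. Shares of all genes past the threshold in fits on fewer arrays or within an experiment are not given here. A change in these counts is therefore not read as particular to the members.

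The first comparison, of isotype with saline mice, addresses which of these enzymes ovalbumin changed under a control antibody. Most of the brighter members were lower in isotype mice, among them Cyp2f2, Cyp4b1, Gsta3, Gstm1 and Fmo1, while Cyp4f18, Cyp7b1, Cyp11a1 and Cyp1b1, enzymes of leukotrienes, oxysterols, steroids and aromatic hydrocarbons, were higher. In all 44 of 135 members passed the threshold (32.6%), 37 lower and 7 higher. Over all genes, 35.6% passed, 21% lower and 14.6% higher. The share of members past the threshold was thus near the background, while the split by direction was 37 to 7 here and 4156 to 2878 over all genes. The median difference was -0.08 over the members and -0.04 over all genes. Among the 41 members in the upper 60% of genes by mean level, 29 were lower, 4 were higher and 8 did not pass (80.5% past the threshold, against 49.6% of all genes of that range). Of the 94 members in the dimmest 40%, 8 were lower, 3 were higher and 83 did not pass (11.7% against 14.6%). All 44 differences had the same sign in both experiments, and 31 passed in each when differences were taken within experiments. Members were called on a fit over both experiments, so equal signs are partly built in, here and in the other comparisons. Within experiment 1, 11 of the 44 calls ended, and within experiment 2, 7, the latter not named here. Differences within experiment 1 called 33 members and those within experiment 2 46, from 1 fit with a shared spread, and these are the values named experiment 1 or 2 alone below. Besides calls named with their genes, those of Gsta4 (-0.43, adjusted p = 0.0684), Gsto1 (0.53, adjusted p = 0.113), Gsto2 (-0.10, adjusted p = 0.448), Gstt3 (-0.21, adjusted p = 0.309) and Sult2b1 (-0.13, adjusted p = 0.328) ended in experiment 1 alone. The isotype and saline mice did not overlap for 30 members (22.2%), all among the 44, against 23.5% of all genes, so this share too was near the background. In bulk lung, fewer cells of a type and less RNA per cell cannot be told apart.

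**Figure D1:**
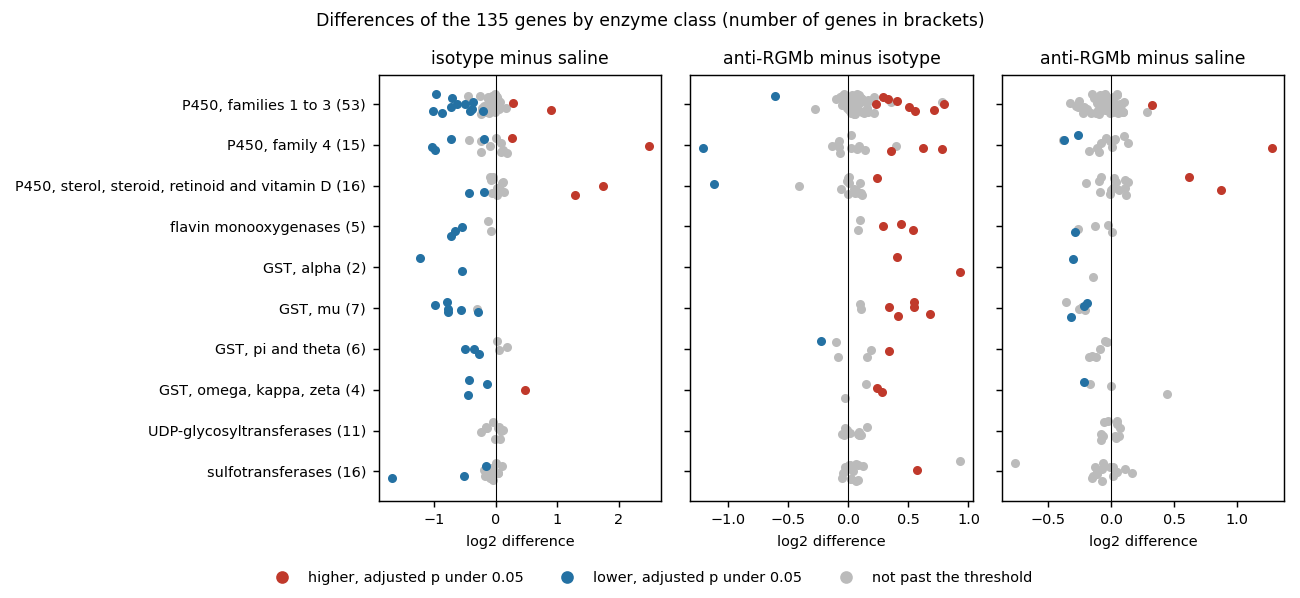
Log2 differences of the 135 members in the 3 comparisons (x axis), by enzyme class (y axis, number of genes in brackets). Each point is a gene, red where higher and blue where lower at adjusted p under 0.05, grey otherwise; in isotype minus saline 37 points are blue and 7 red, in anti-RGMb minus isotype 4 are blue and 26 red.

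P450 families 1 to 3 hold the classical drug and pollutant oxidizing enzymes. Of 53 members, 11 were lower, 2 were higher (Cyp1b1 and Cyp2ab1) and 40 did not pass in isotype mice, with a median of -0.07. Cyp2f2, the club cell P450 that activates naphthalene, lay at -0.06 to 0.09 (median -0.0053) above saline in saline mice and at -0.84, -0.81, -0.78, -0.63 and -0.53 in isotype mice. Both groups stood well apart, and the 3 isotype mice of experiment 1 were the lowest. The difference was -0.71 ± 0.05 (limma adjusted p = 5.1e-09), or 0.612 times the saline level. Cyp2s1, a P450 of surface epithelia, ranged over -0.10 to 0.15 (median -0.04) in saline mice and read -1.23, -0.90, -1.24, -1.13 and -0.62 in isotype mice. Again no isotype mouse reached the saline range, and mouse 2-2 was the nearest to it. Its difference was -1.02 ± 0.10 (limma adjusted p = 4.8e-07). Cyp2b10, the P450 that phenobarbital induces in liver, was lower in every isotype mouse, at -0.76, -0.51, -0.36, -0.83 and -0.67 against -0.13 to 0.13 (median 0.01) in saline mice, with a difference of -0.64 ± 0.07 (limma adjusted p = 1.7e-06). Cyp2d22, a drug-oxidizing P450, differed by -0.97 ± 0.12 (limma adjusted p = 3.6e-06); its isotype mice read -1.13, -0.58, -0.58, -1.14 and -1.32 and its saline mice -0.13 to 0.21 (median -0.06).

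Cyp2e1, which oxidizes ethanol and small solvents, had its low values in the isotype mice of experiment 2. Its isotype mice read -0.24, -0.21, -0.27, -1.73 and -1.49 against -0.37 to 0.41 (median 0.03) in saline mice. The 3 isotype mice of experiment 1 lay inside the saline range and the 2 of experiment 2 far below it. The difference was -0.87 ± 0.28 (limma adjusted p = 0.0196), with -0.24 in experiment 1 and -1.61 in experiment 2; the interaction did not pass (adjusted p = 0.226). It did not pass without isotype mouse 1-2 (-0.73, adjusted p = 0.0698) or 2-2 (-0.81, adjusted p = 0.0543), nor with arrays weighted by their spread (-0.61, adjusted p = 0.16), nor without the 3 arrays of low weight (-0.47, adjusted p = 0.34). Alb, a liver marker, differed by 0.0021 in experiment 1 and -1.57 in experiment 2 without passing in the pooled model, and of 5 fat markers 1, Cidec, was lower (-0.83). In saline mice 1-2, 2-2 and 3-2 the mean of 7 liver markers was 0.65, -0.25 and -0.40, and Cyp2e1 read 0.13, 0.24 and -0.37. In isotype mice 1-2 and 2-2 the liver mean was -0.21 and -0.50. The part of liver or fat RNA in the Cyp2e1 difference was not tested. Cyp2j9, which metabolizes arachidonic acid, read -0.70, -0.33, -0.36, -1.13 and -1.05 in isotype mice and -0.07 to 0.07 (median 0.0007) in saline mice, with no overlap. Its difference of -0.73 ± 0.10 (limma adjusted p = 1.5e-05) was -0.47 in experiment 1 and -1.09 in experiment 2, and it was the only member of 135 whose difference between experiments passed the threshold (-0.62, limma adjusted p = 0.0309). The other 5 lower members of these families were Cyp2c23 (-0.50), Cyp2j6 (-0.42), Cyp2u1 (-0.39), Cyp2b9 (-0.37) and Cyp3a13 (-0.21). These 5 and Cyp2j9 were named after their values were seen. The Cyp2j6 call ended in experiment 1 alone (-0.12, adjusted p = 0.624) and without the 3 arrays of low weight (-0.18, adjusted p = 0.125); without isotype mouse 1-2 it passed at -0.26, and in experiment 2 it was -0.80. The Cyp3a13 call ended likewise in experiment 1 (-0.09, adjusted p = 0.457) and without these arrays (-0.15, adjusted p = 0.157), and was -0.34 in experiment 2. Cyp3a13 was dim, below the lower quartile on all 17 arrays. Cyp2c23 passed in experiment 1 at -0.33.

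Cyp1b1, an oxidase of polycyclic aromatic hydrocarbons and oestrogens and a target gene of the aryl hydrocarbon receptor (Ahr), went the other way. Saline mice lay at -0.30 to 0.38 (median -0.04) and isotype mice at 0.97, 1.03, 0.31, 0.72 and 1.5. Isotype mouse 3 fell within the saline range and the other 4 above it. The difference was 0.90 ± 0.18 (limma adjusted p = 8.3e-04), or 1.86-fold. Cyp1a1, the best known Ahr target, did not pass at -0.45 ± 0.26 (adjusted p = 0.2), and its saline mice spread over -0.95 to 0.54 (median 0.10). Cyp2ab1 was higher by 0.28 ± 0.07 (limma adjusted p = 0.00395), with isotype mice at 0.18, 0.33, 0.44, 0.26 and 0.19, all above the saline maximum of 0.07.

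P450 family 4 hydroxylates the end of fatty acid chains, leukotrienes included, and its members split. Of 15, 2 were higher, 4 were lower and 9 did not pass, with a median of -0.10. Cyp4f18, an enzyme of mouse neutrophils that inactivates leukotriene B4, had the largest rise of all 135 members. Its level was -0.09 to 0.18 (median -0.02) above saline in saline mice and 2.54, 2.20, 1.53, 2.85 and 3.06 in isotype mice. Every isotype mouse was above every saline mouse by more than 1 log2 unit. The difference of 2.49 ± 0.17 is 5.6-fold (limma adjusted p = 5.5e-09). Cyp4f14, which also hydroxylates leukotriene B4, rose by 0.27 ± 0.05 (adjusted p = 5.1e-04); it was dim, below the lower quartile on 16 of 17 arrays, and isotype mouse 2 lay within the saline range.

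Cyp4b1, a lung-rich monooxygenase that activates the toxin 4-ipomeanol, was lower. It read -0.09 to 0.06 (median 0.0078) in saline mice and -1.30, -0.89, -0.79, -1.16 and -1.06 in isotype mice, with no overlap. The difference was -1.04 ± 0.07 (limma adjusted p = 5.9e-09), or 0.486 times the saline level. Cyp4f15, another fatty acid hydroxylase, fell by 0.99 (SE 0.09, adjusted p = 1.0e-07), with isotype mice at -1.14, -0.90, -0.95, -1.21 and -0.78 and saline mice at -0.20 to 0.18 (median 0.0036). Cyp4f39 (-0.73), which hydroxylates very long fatty acids of skin lipids, and Cyp4f13 (-0.18), both named after their values were seen, were the other lower members. The Cyp4f13 call ended without any one of 7 mice (saline 1, 1-2, 2-2 and 3-2, isotype 1, 3 and 2-2; -0.18 to -0.15, adjusted p 0.0634 to 0.119). It ended too in experiment 1 alone (-0.13, adjusted p = 0.375), with array weights (-0.14, adjusted p = 0.112) and without the 3 arrays of low weight (-0.16, adjusted p = 0.128).

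P450 enzymes of sterols, steroids, retinoids and vitamin D, with Cyp20a1 counted among them, changed in few members. Of 16, 2 were higher, 2 were lower and 12 did not pass, with a median of -0.01. Cyp7b1 hydroxylates 25- and 27-hydroxycholesterol, oxysterols that guide immune cells and regulate lipid genes. Its saline mice lay at -0.25 to 0.20 (median 0.04) and its isotype mice at 1.64, 1.46, 1.52, 1.68 and 2.37. The groups were more than 1 log2 unit apart, and isotype mouse 2-2 stood above the other 4. The rise of 1.74 ± 0.13 is 3.34-fold (limma adjusted p = 1.4e-08). Cyp11a1, the enzyme that cuts the cholesterol side chain to make pregnenolone, read -0.16 to 0.20 (median 0.0056) in saline mice and 0.64, 1.21, 0.76, 1.28 and 2.34 in isotype mice. No isotype mouse reached down to the saline range, and mouse 2-2 was again the highest. It rose by 1.29 ± 0.19, or 2.44-fold (limma adjusted p = 3.5e-05). On the arrays of all 6 saline mice Cyp11a1 was below the lower quartile, so this fold is taken from a dim baseline. Cyp39a1, a hydroxylase of 24-hydroxycholesterol, and Cyp20a1, a P450 without a well defined substrate, had differences of -0.44 and -0.19, and both were named after their values were seen. The Cyp20a1 call ended without any one of 8 mice (saline 2, 3, 1-2 and 3-2, isotype 1, 2, 1-2 and 2-2; -0.19 to -0.15, adjusted p 0.0601 to 0.126), in experiment 1 alone (-0.12, adjusted p = 0.462) and without the 3 arrays of low weight (-0.10, adjusted p = 0.357). Cyp39a1 passed in experiment 1 at -0.28. Cyp26b1, which clears retinoic acid (0.11 ± 0.15, adjusted p = 0.65), and the sterol hydroxylase Cyp27a1 (-0.05 ± 0.10, adjusted p = 0.771) did not pass.

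**Figure D2:**
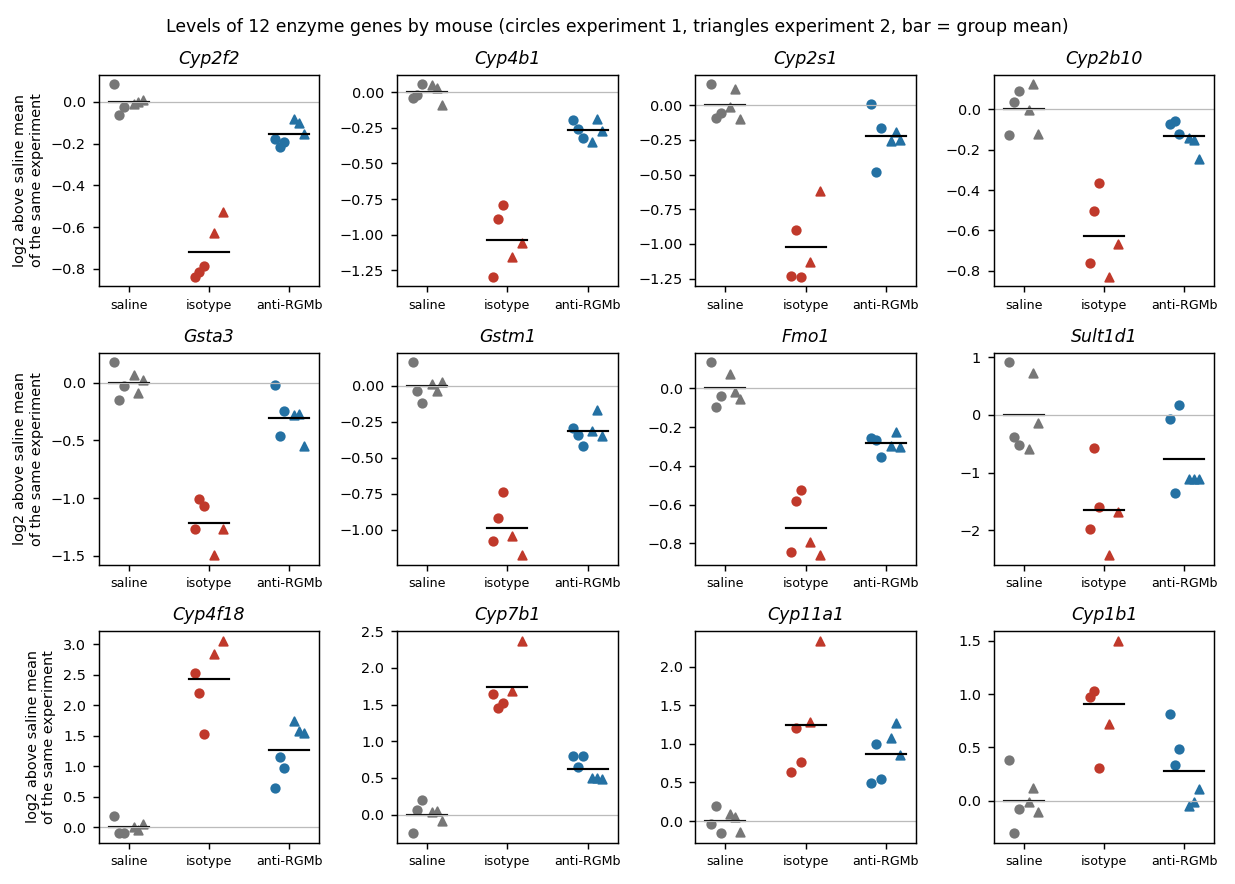
Level of 12 members in each mouse (y axis: log2 intensity minus the saline mean of the same experiment; x axis: group; circles experiment 1, triangles experiment 2, bar the group mean). Isotype mice lie apart from saline mice for Cyp2f2 (isotype -0.84 to -0.53), Cyp4b1, Gsta3, Gstm1 and Fmo1 below and for Cyp4f18, Cyp7b1 and Cyp11a1 above, while Sult1d1 and Cyp1b1 overlap.

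Flavin monooxygenases oxidize nitrogen and sulfur in drugs and pesticides, and Fmo2 is a main lung form. Of 5 members Fmo1, Fmo2 and Fmo5 were lower and 2 did not pass (median -0.55). Fmo1 lay at -0.09 to 0.13 (median -0.03) in saline mice and at -0.84, -0.58, -0.52, -0.79 and -0.86 in isotype mice, a difference of -0.73 ± 0.06 without overlap (limma adjusted p = 9.2e-08). Fmo2 read -0.10 to 0.12 (median -0.01) and -0.82, -0.37, -0.30, -0.94 and -0.81, a difference of -0.66 ± 0.10 (limma adjusted p = 4.0e-05). Isotype mice 2 and 3 were the nearest to saline for both genes. Fmo5 was lower, with a difference of -0.55 ± 0.08 (adjusted p = 4.9e-05), at -0.44, -0.34, -0.34, -0.90 and -0.63 in isotype and -0.13 to 0.24 (median -0.0018) in saline mice.

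Glutathione S-transferases join glutathione to electrophiles, lipid peroxides and drug metabolites. Both measured members of the alpha class were lower. Gsta3, which detoxifies the epoxide of aflatoxin, ranged over -0.15 to 0.18 (median -0.0031) in saline mice and read -1.27, -1.01, -1.07, -1.49 and -1.27 in isotype mice, so that the groups were far apart. The difference was -1.23 ± 0.09, or 0.426 times the saline level (limma adjusted p = 9.4e-09). Gsta4, which clears the lipid aldehyde 4-hydroxynonenal, was lower, with a difference of -0.54 ± 0.12 (adjusted p = 0.00111), at -0.42, -0.31, -0.57, -0.62 and -0.76 against -0.21 to 0.41 (median -0.06) in saline mice. In the mu class 6 of 7 members were lower (median -0.77) and Gstm5 did not pass (-0.30 ± 0.12, adjusted p = 0.0593). Gstm1 lay at -0.12 to 0.16 (median -0.01) in saline mice and at -1.08, -0.92, -0.74, -1.04 and -1.18 in isotype mice. Its difference of -0.99 ± 0.07 (limma adjusted p = 8.8e-09) came without overlap. The other 5 lower members were Gstm7 (-0.80), Gstm3 (-0.78), Gstm6 (-0.77, named after its values were seen), Gstm2 (-0.56) and Gstm4 (-0.29). Gstm3 was the only member with 2 probe sets, of which the brighter was kept, and where in the genome it lies was not checked. Mu class genes are close in sequence, and how far a probe set of one reads another was not tested.

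In the pi and theta classes 3 of 6 were lower and none was higher (median -0.13). Gstp1, an abundant transferase of epithelia, was lower, with a difference of -0.36 ± 0.07 (limma adjusted p = 3.5e-04), with isotype mice at -0.39, -0.45, -0.49, -0.21 and -0.29 and saline mice at -0.16 to 0.25 (median -0.05). Gstt1, which acts on small halogenated compounds, differed by -0.50 ± 0.08 (adjusted p = 1.2e-04), and Gstt3, named after its values were seen, by -0.27. The Gstt3 call ended without any one of 6 mice (saline 1, 1-2 and 3-2, isotype 1, 2 and 2-2; -0.27 to -0.23, adjusted p 0.0532 to 0.0969). Of the omega, kappa and zeta classes Gstk1, of mitochondria and peroxisomes (-0.44 ± 0.07, adjusted p = 8.2e-05), Gstz1, an enzyme of tyrosine breakdown (-0.45 ± 0.06, adjusted p = 2.4e-05), and Gsto2 (-0.15) were lower. The Gsto2 call, named after its value was seen, ended without any one of 13 mice, that is, all but anti-RGMb 1-2, 2-2 and 3-2 and isotype 3 (-0.15 to -0.11, adjusted p 0.0538 to 0.141). Gsto1, which reduces dehydroascorbate, was the single higher one of the 19 Gst members, at 0.48 ± 0.16 (limma adjusted p = 0.0224). Its isotype mice read 0.29, 1.23, 0.09, 0.24 and 0.59 against -0.12 to 0.14 (median -0.03) in saline mice, so mouse 2 was far above and mouse 3 within the saline range. That call ended on leaving out saline mouse 2, at 0.44 (adjusted p = 0.0513), and likewise isotype mouse 2-2, at 0.44 (adjusted p = 0.0622), and the value was 0.30 without isotype mouse 2, where it passed. Without the 3 arrays of low weight the calls of Gsto1 (0.52, adjusted p = 0.0855), Gstt3 (-0.23, adjusted p = 0.0909) and Gsto2 (-0.11, adjusted p = 0.289) ended.

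The bases before the start site are shown for 4 genes, 2 with large falls and 2 with clear rises in isotype mice, chosen after their values were seen, because members that move together can be set beside the short motifs known for inducers of these enzymes. RefSeq (GRCm38.p6) promoters were held for 109 members (129 promoters of 300 bases, 250 before and 50 after the start), of which the 250 bases before the start are printed 5′ to 3′. Capitals mark motif matches. All 4 stretches shown hold a match, whereas no match was in the promoters of Cyp4b1, Cyp2s1, Cyp4f15 and Cyp2f2, which were also lower. The Gsta3 stretch is chr1:21240335-21240584 on the plus strand and holds TGACNNNGC, the core of the antioxidant response element, 121 bases before the start. The Gstm1 stretch, before the upstream of its starts, is chr3:108017974-108018223 on the minus strand, with GCGTG, the core of the Ahr binding site, 76 bases before the start and a STAT6 site, that is, TTC and GAA with any 4 bases between them, 109 bases before it. The Cyp4f18 stretch is chr8:72009627-72009876 on the minus strand, with TGACNNNGC 140 bases before the start. The Cyp1b1 stretch is chr17:79715062-79715311 on the minus strand, with GCGTG on the other strand 76 bases before the start.
Gsta3: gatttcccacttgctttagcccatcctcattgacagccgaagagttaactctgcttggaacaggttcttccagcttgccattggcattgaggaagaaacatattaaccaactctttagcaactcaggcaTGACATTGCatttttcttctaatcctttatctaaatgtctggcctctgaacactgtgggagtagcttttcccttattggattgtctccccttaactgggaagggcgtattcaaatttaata
Gstm1: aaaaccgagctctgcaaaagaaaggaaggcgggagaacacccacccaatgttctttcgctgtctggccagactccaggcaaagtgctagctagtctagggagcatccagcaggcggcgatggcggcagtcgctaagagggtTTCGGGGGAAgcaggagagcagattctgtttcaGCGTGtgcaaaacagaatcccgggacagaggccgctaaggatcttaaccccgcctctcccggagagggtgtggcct
Cyp4f18: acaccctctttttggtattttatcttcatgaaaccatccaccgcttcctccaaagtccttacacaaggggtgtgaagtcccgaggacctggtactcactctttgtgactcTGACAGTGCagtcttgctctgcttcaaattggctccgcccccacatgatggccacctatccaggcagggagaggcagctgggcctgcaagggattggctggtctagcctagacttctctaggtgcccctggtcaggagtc
Cyp1b1: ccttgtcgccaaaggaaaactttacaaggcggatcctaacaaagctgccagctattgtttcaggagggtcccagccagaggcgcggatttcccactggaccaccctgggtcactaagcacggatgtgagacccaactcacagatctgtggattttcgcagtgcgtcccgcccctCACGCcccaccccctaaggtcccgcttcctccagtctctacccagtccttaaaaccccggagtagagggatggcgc

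Both strands were searched. GCGTG can overlap TGACNNNGC, as it does in Gstm5. TGACNNNGC was in the promoter of 10 of 109 members with an entry (9.2%, against 14.0% of 27025 genes). It was in 4 of 31 lower members (12.9%), in 2 of 6 higher ones (Cyp4f18 and Cyp4f14) and in 4 of 72 others (5.6%). GCGTG was in 23 members (21.1%, against 35.2% of all genes), among them 8 of the 31 lower and 3 of the 6 higher ones (Cyp1b1, Cyp2ab1 and Cyp4f14). The STAT6 site was in 6 members (5.5%, against 8.0%): Gstm1, Gstm3, Gstm6 and Sult1a1 among the lower, Cyp11a1 among the higher and Cyp27b1 among the others. A match is only a run of letters in this window and shows no binding.

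UDP-glycosyltransferases join glucuronic acid or another sugar to their substrates. None of the 11 members passed in any of the 3 comparisons, and 9 were below the lower quartile on every array. At unadjusted p under 0.05 there were 2 in isotype against saline mice, Ugt8a and Ugt2b36, and 0 in each of the other comparisons. Ugt8a, which makes galactosylceramide, was the nearest at -0.24 ± 0.09 (limma adjusted p = 0.0596) in isotype against saline mice, and Ugt2b34 differed by -0.01 ± 0.08. Genes of the Ugt1a locus stood only on shared probe sets.

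Sulfotransferases had 3 of 16 members lower, none higher and a median of -0.08. Sult1d1, which sulfates catechols such as dopamine, had the largest fall of all members and the widest spread. It read -0.58 to 0.91 (median -0.26) in saline mice and -1.98, -0.57, -1.59, -2.43 and -1.69 in isotype mice. Saline mice 1 and 2-2 were far above the other 4, and isotype mouse 2 lay just inside the saline range. The difference was -1.70 ± 0.34, or 0.309 times the saline level (limma adjusted p = 6.1e-04). Sult1d1 was below the lower quartile on 6 arrays, those of isotype mice 1, 3, 1-2 and 2-2 and anti-RGMb mice 2 and 3-2. Its fall thus ended in the dim range, where the size of a ratio is less certain. The mice with the highest Sult1d1 of their groups (saline 1 and 2-2, anti-RGMb 1 and 3, isotype 2) also had the highest mean of 8 heart muscle markers, given below, and the part of that muscle in the difference was not tested. Sult1a1, the phenol sulfotransferase, was lower, with a difference of -0.52 ± 0.13 (adjusted p = 0.00291), with -0.24 in experiment 1, which did not pass on its own, and -0.89 in experiment 2. Without the 3 arrays of low weight Sult1a1 (-0.26, adjusted p = 0.167) and Sult2b1 (-0.15, adjusted p = 0.151) did not pass. Isotype mice lay at -0.59, 0.03, -0.16, -0.94 and -0.84, so that mice 2 and 3 overlapped with saline mice, at -0.16 to 0.21 (median -0.0095). Sult2b1, which sulfates cholesterol, had a small difference of -0.15 ± 0.06 (adjusted p = 0.0474). It did not pass without any one of 12 mice (saline 2, 3, 1-2 and 2-2, anti-RGMb 1, 2, 3 and 1-2, isotype 1, 2, 1-2 and 2-2; -0.16 to -0.12, adjusted p 0.0557 to 0.136). Sult1c2 (-0.18 ± 0.07, adjusted p = 0.0612) and Sult5a1 (0.03 ± 0.09, adjusted p = 0.848) did not pass.

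Anti-RGMb and isotype mice, which both had ovalbumin, show what the antibody to RGMb changed under allergen. Of the 135 members 26 were higher and 4 lower in anti-RGMb mice (22.2% past the threshold, against 21.2% of all genes), with a median of 0.07 against 0.03 over all genes. Over all genes, 11.1% were higher and 10% lower. In the upper 60% by mean level, 23 of 41 members were higher and 3 lower (63.4% against 30.3% of all genes), and of the 94 dim members 3 were higher and 1 lower (4.26% against 7.47%). All 30 differences had the same sign in both experiments, and 11 passed in each. Experiment 1 alone gave 11 members past the threshold and experiment 2 alone 30. Isotype and anti-RGMb mice did not overlap for 14 members (10.4%), all among the 30, against 10% of all genes, a share near the background. Isotype mice enter this comparison and the one with saline, so the 2 sets of differences are not independent of each other, and values are given side by side.

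Cyp2f2, Cyp4b1, Cyp2s1, Cyp2b10, Cyp2d22 and Cyp4f15 were all higher in anti-RGMb than in isotype mice. Cyp2f2 lay at -0.22 to -0.08 (median -0.16) above saline in anti-RGMb mice, all above every isotype value and below every saline value. The difference from isotype mice was 0.56 ± 0.05 (limma adjusted p = 2.0e-06). Cyp4b1 read -0.35 to -0.19 (median -0.27), higher than isotype mice by 0.78 ± 0.07 (adjusted p = 3.4e-06), again between the other groups without overlap. Cyp2s1 read -0.48 to 0.0047 (median -0.22), higher by 0.79 ± 0.10 (adjusted p = 4.0e-05), and Cyp2b10 -0.25 to -0.06 (median -0.13), higher by 0.50 ± 0.07 (adjusted p = 9.1e-05). Both overlapped with saline mice and not with isotype mice. Cyp2d22 was higher by 0.71 ± 0.12 (adjusted p = 3.1e-04) and Cyp4f15 by 0.62 ± 0.09 (adjusted p = 8.3e-05). Cyp2e1 did not pass at 0.78 ± 0.28 (adjusted p = 0.0547), and its anti-RGMb mice spread over -0.97 to 1.24 (median -0.35).

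Of the other P450 members, Cyp2j9 (0.41), Cyp2b9 (0.33), Cyp2c23 (0.29), Cyp2u1 (0.23), Cyp4f39 (0.35) and Cyp39a1 (0.24) were higher than in isotype mice. The Cyp2c23 call ended without anti-RGMb mouse 2-2 (0.25, adjusted p = 0.0637) and, separately, without isotype mouse 2-2 (0.18, adjusted p = 0.0938). That of Cyp39a1 ended without any one of 7 mice (anti-RGMb 1, 3, 1-2 and 2-2, isotype 1, 1-2 and 2-2; 0.19 to 0.25, adjusted p 0.0535 to 0.111). The Cyp4f39 call ended without any one of 9 (saline 2, 3 and 2-2, anti-RGMb 1, 2, 2-2 and 3-2, isotype 1 and 1-2; 0.27 to 0.35, adjusted p 0.0507 to 0.138).

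These 6 P450 calls did not hold in experiment 1 alone: Cyp2j9 was at 0.15, adjusted p = 0.373, Cyp2c23 at 0.14, adjusted p = 0.581, Cyp2u1 at 0.15, adjusted p = 0.222, Cyp39a1 at 0.15, adjusted p = 0.466, Cyp2b9 at 0.27, adjusted p = 0.0716 and Cyp4f39 at 0.35, adjusted p = 0.269. In experiment 2 Cyp2j9 was at 0.75 and Cyp2c23 at 0.49. Without the 3 arrays of low weight, 5 of the 6 calls ended, those of Cyp2j9 (0.15, adjusted p = 0.272), Cyp2c23 (0.13, adjusted p = 0.369), Cyp2u1 (0.13, adjusted p = 0.169), Cyp39a1 (0.14, adjusted p = 0.234) and Cyp4f39 (0.30, adjusted p = 0.26), and Cyp2b9 passed. In experiment 2 alone Cyp4f39 (0.37, adjusted p = 0.186) did not pass, nor did Gstm6 (0.59, adjusted p = 0.0513), Gstt1 (0.33, adjusted p = 0.0846) and Gstz1 (0.23, adjusted p = 0.115), transferases described below. With array weights Cyp2c23 (0.20, adjusted p = 0.103), Cyp39a1 (0.21, adjusted p = 0.0578) and Cyp4f39 (0.31, adjusted p = 0.088) did not pass.

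Of the 6 P450 genes that were higher in isotype than in saline mice, 3 were lower in anti-RGMb than in isotype mice. Cyp4f18 read 0.64 to 1.75 (median 1.35) above saline in anti-RGMb mice; isotype mouse 3 was within this range and the other 4 above it. Its difference from isotype mice was -1.21 ± 0.17, or 0.432 times the isotype level (limma adjusted p = 9.3e-05). Cyp7b1 read 0.49 to 0.79 (median 0.57), between the saline and isotype mice and apart from both. It was lower than in isotype mice, with a difference of -1.12 ± 0.13 (limma adjusted p = 1.7e-05). Cyp1b1 lay at -0.05 to 0.82 (median 0.22), with experiment 1 above experiment 2, and differed by -0.61 ± 0.18 (adjusted p = 0.0232). In experiment 1 the Cyp1b1 difference was -0.22, which did not pass, and in experiment 2 -1.09. The pooled call ended without anti-RGMb mouse 1-2 (-0.56, adjusted p = 0.0527) or 2-2 (-0.57, adjusted p = 0.0524), without isotype mouse 2-2 (-0.42, adjusted p = 0.094), and without the 3 arrays of low weight (-0.35, adjusted p = 0.339). Cyp11a1 (-0.41 ± 0.19, adjusted p = 0.15), Cyp4f14 (-0.14 ± 0.05, adjusted p = 0.0759) and Cyp2ab1 (0.04 ± 0.07, adjusted p = 0.742) did not pass.

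Among flavin monooxygenases Fmo1 (0.44 ± 0.06, limma adjusted p = 1.0e-04), Fmo2 (0.53 ± 0.10, adjusted p = 8.5e-04) and Fmo5 (0.29 ± 0.08, adjusted p = 0.0202) were higher in anti-RGMb than in isotype mice. Fmo1 lay at -0.35 to -0.22 (median -0.28), apart from both other groups, and Fmo2 at -0.27 to 0.04 (median -0.16), apart from isotype mice. The Fmo5 call ended without isotype mouse 1-2 (0.21, adjusted p = 0.0773), with array weights (0.21, adjusted p = 0.0995), without the 3 arrays of low weight (0.16, adjusted p = 0.336) and in experiment 1 alone (0.21, adjusted p = 0.295), where Fmo2 did not pass either (0.37, adjusted p = 0.0853).

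Gsta3 and Gstm1 led the transferases. Gsta3 read -0.55 to -0.02 (median -0.27) in anti-RGMb mice, above all isotype mice, with a difference of 0.93 ± 0.09 (1.9-fold, limma adjusted p = 3.9e-06). Gstm1 read -0.42 to -0.17 (median -0.33), above all isotype and below all saline mice, with a difference of 0.68 ± 0.07 (limma adjusted p = 7.7e-06). Gsta4 was higher by 0.40 ± 0.12 (adjusted p = 0.0179), a call that ended without isotype mouse 2-2 (0.35, adjusted p = 0.0637). Gstm3 (0.55 ± 0.09), Gstm7 (0.54 ± 0.10), Gstm6 (0.42 ± 0.13) and Gstm2 (0.34 ± 0.07) were higher too, while Gstm4 (0.10) and Gstm5 (0.09) did not pass. The Gstm6 call ended without any one of 6 mice (anti-RGMb 1-2 and 2-2, isotype 1, 2, 1-2 and 2-2; 0.34 to 0.42, adjusted p 0.0579 to 0.1). In experiment 1 alone Gsta4 (0.31, adjusted p = 0.339), Gstm6 (0.28, adjusted p = 0.497), Gstm2 (0.26, adjusted p = 0.0871), Gstm3 (0.40, adjusted p = 0.0628) and Gstm7 (0.41, adjusted p = 0.0647) did not pass, and without the 3 arrays of low weight Gsta4 (0.33, adjusted p = 0.151) and Gstm6 (0.35, adjusted p = 0.202) did not.

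Gstt1 (0.34 ± 0.08), Gstk1 (0.28 ± 0.07) and Gstz1 (0.23 ± 0.06) were also higher in anti-RGMb than in isotype mice; the Gstz1 call ended without isotype mouse 1-2 (0.19, adjusted p = 0.054). Gstp1 did not pass (0.19 ± 0.07, adjusted p = 0.0574). Gstt4, dim on 16 of 17 arrays, was lower, with a difference of -0.23 ± 0.08 (adjusted p = 0.0394). That call ended without any one of 7 mice (anti-RGMb 3, 1-2, 2-2 and 3-2, isotype 3, 1-2 and 2-2; -0.23 to -0.18, adjusted p 0.0561 to 0.134). In experiment 1 alone Gstt4 (-0.11, adjusted p = 0.609), Gstk1 (0.19, adjusted p = 0.309), Gstt1 (0.36, adjusted p = 0.0673) and Gstz1 (0.25, adjusted p = 0.111) did not pass. Without the 3 arrays of low weight Gstt4 (-0.10, adjusted p = 0.557), Gstk1 (0.19, adjusted p = 0.191) and Gstz1 (0.21, adjusted p = 0.101) did not, nor did Gstt4 with array weights (-0.14, adjusted p = 0.253). Gsto1 was at 0.22 to 0.77 (median 0.40) in anti-RGMb mice, with a difference from isotype mice of -0.03 ± 0.16 (adjusted p = 0.91).

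Sult1a1 was the only sulfotransferase past the threshold here, higher by 0.57 ± 0.13 (limma adjusted p = 0.00296), with anti-RGMb mice at -0.16 to 0.22 (median 0.08). It did not pass in experiment 1 alone (0.36, adjusted p = 0.148) or without the 3 arrays of low weight (0.34, adjusted p = 0.127). Sult1d1 did not pass at 0.93 ± 0.34 (adjusted p = 0.0597). Its anti-RGMb mice lay at -1.36 to 0.18 (median -1.11), with mice 1 and 3 above the other 4.

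Anti-RGMb and saline mice were set against each other to see which enzymes differed from saline-challenged lung. Of the members 4 were higher and 8 lower (8.9% past the threshold, against 6.50% of all genes), with a median of -0.04 against -0.01 over all genes. The background was 4.26% of all genes higher and 2.24% lower. In the upper 60% by level 2 of 41 members were higher and 8 lower (24.4% against 9.54%), and of the 94 dim members 2 were higher and none lower (2.13% against 1.95%). All 12 had the same sign in both experiments, and 1, Cyp4f18, passed in each. Experiment 1 alone gave 3 members and experiment 2 alone 4. Anti-RGMb and saline mice did not overlap for 11 members (8.15%), 7 of them among the 12, against 6.84% of all genes, a share near the background. Without the dimmest 40% of genes 2 were higher and 13 lower. The share of all genes past the threshold in that fit is not given here, so this count is not read as particular to the members. The count of 12 became 7 without anti-RGMb mouse 2, anti-RGMb mouse 3 or saline mouse 1-2, and 18 without isotype mouse 2-2.

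The 4 higher members were Cyp4f18 (1.27 ± 0.16, 2.42-fold, limma adjusted p = 6.6e-05), Cyp11a1 (0.88 ± 0.18, adjusted p = 0.00563), Cyp7b1 (0.62 ± 0.12, adjusted p = 0.00438) and Cyp2ab1 (0.32 ± 0.07, adjusted p = 0.0056). Cyp11a1 lay at 0.49 to 1.27 (median 0.93) in anti-RGMb mice, all above the saline mice, and Cyp2ab1 at 0.06 to 0.53 (median 0.35), with 1 mouse in the saline range. Saline mice were dim for Cyp11a1, below the lower quartile on each of their arrays. Cyp4f15 (-0.37 ± 0.08, adjusted p = 0.0104), Gstm1 (-0.32 ± 0.07, adjusted p = 0.00767) and Fmo1 (-0.28 ± 0.06, adjusted p = 0.00693) were lower. These 7 calls held with each of the 17 mice left out in turn. In experiment 1 alone 9 of all 12 calls ended, among them Cyp2ab1 (0.22, limma adjusted p = 0.245). In experiment 2 alone 9 ended too, and only Cyp4f18 passed in each experiment.

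The other 5 lower members did not keep their call without some single mice. Gsta3 (-0.30 ± 0.09, adjusted p = 0.0408) did not pass without any one of 9 mice (saline 1, 3, 1-2, 2-2 and 3-2, anti-RGMb 2, 3, 1-2 and 3-2; -0.32 to -0.26, adjusted p 0.0503 to 0.11). Cyp4b1 (-0.26 ± 0.07, adjusted p = 0.0287) did not without any one of 6 (saline 3, 1-2 and 2-2, anti-RGMb 2, 3 and 1-2; -0.26 to -0.25, adjusted p 0.0599 to 0.0741). Gstm2 (-0.22 ± 0.06, adjusted p = 0.0453) did not without any one of 12 (every saline mouse, anti-RGMb 1, 2, 3, 2-2 and 3-2, isotype 2; -0.23 to -0.18, adjusted p 0.0545 to 0.119). Gstm4 (-0.19 ± 0.05, adjusted p = 0.037) did not without any one of 9 (saline 1, 3, 1-2 and 3-2, anti-RGMb 1, 2, 3, 1-2 and 3-2; -0.20 to -0.16, adjusted p 0.0521 to 0.1). Gstz1 (-0.21 ± 0.06, adjusted p = 0.0446) did not without any one of 11 (saline 1, 3, 1-2, 2-2 and 3-2, anti-RGMb 2, 3, 1-2, 2-2 and 3-2, isotype 2; -0.22 to -0.19, adjusted p 0.0556 to 0.114). Gstz1 was at -0.14, adjusted p = 0.618 in experiment 1 alone and Gstm2 at -0.13, adjusted p = 0.529 in experiment 2 alone. Without the 3 arrays of low weight Gsta3 (-0.26, adjusted p = 0.059) and Gstm2 (-0.21, adjusted p = 0.0565) did not pass. Cyp2f2 missed the threshold at -0.15 ± 0.05 (adjusted p = 0.0609), although its 6 anti-RGMb mice were all below its 6 saline mice.

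**Figure D3:**
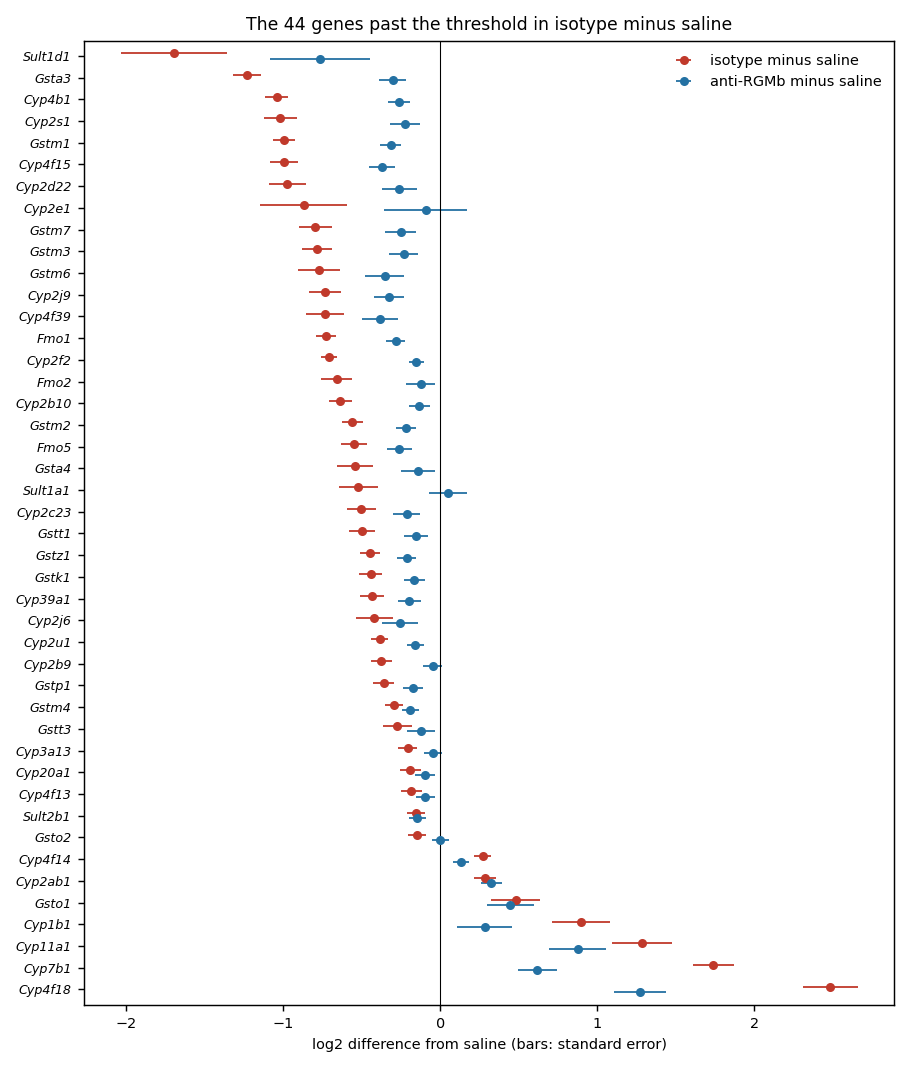
Log2 difference from saline mice with its standard error (x axis) of the 44 members past the threshold in isotype minus saline (y axis, ordered by that difference), in isotype mice (red) and anti-RGMb mice (blue). The members run from Sult1d1 (-1.70 in isotype and -0.77 in anti-RGMb mice) to Cyp4f18 (2.49 and 1.27); the 2 sets share the saline mice.

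Many of these genes lie in clusters of related copies, and neighbours did not all behave alike. By RefSeq gene order (GRCm38.p6), 16 runs of 3 or more members had starts no more than 100 kb apart. In the mu class cluster, in the order Gstm5, Gstm7, Gstm6, Gstm3, Gstm2, Gstm1 and Gstm4, the isotype differences from saline were -0.30, -0.80, -0.77, -0.78, -0.56, -0.99 and -0.29, the first not past the threshold. The order is that of the genes. Whether the kept Gstm3 probe set lies in this cluster was not checked, so its value may not belong to this position. In another cluster Cyp4f39 (-0.73) and Cyp4f15 (-0.99) enclose Cyp4f16 (0.11), Cyp4f37 (0.18) and Cyp4f40 (0.08), which did not pass. Cyp4b1 (-1.04) follows 4 genes of the Cyp4a group, none past the threshold (-0.43 to 0.08). Fmo1 and Fmo2 were lower and their neighbour Fmo4 did not pass (-0.12). Cyp2d22 (-0.97) adjoins Cyp2d11, Cyp2d10 and Cyp2d9 (-0.08 to -0.01), and Sult1d1 lies between Sult1b1 (-0.05) and Sult1e1 (-0.08), and none of these neighbours passed. Of Cyp2a22, Cyp2a12, Cyp2f2 and Cyp2t4, Cyp2f2 alone passed. All of these neighbours that did not pass were below the lower quartile on every array, apart from Gstm5, Fmo4 and Cyp4f16, which were above it on all 17, and Cyp2d10, which was below it on 2.

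**Figure D4:**
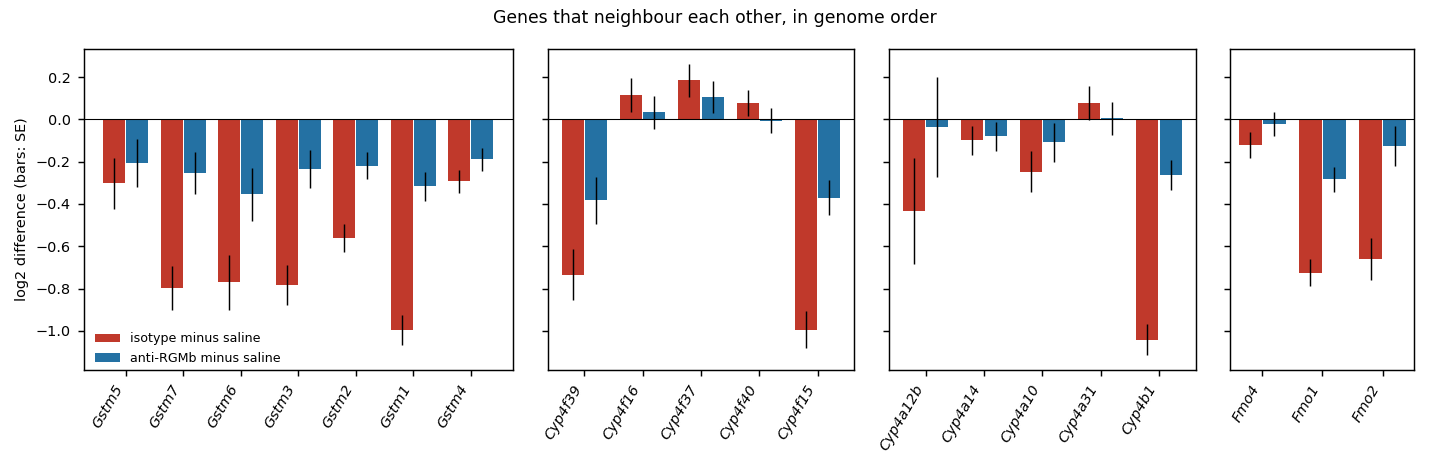
Log2 difference from saline with its standard error (y axis) for members that neighbour each other in genome order (x axis), in isotype (red) and anti-RGMb mice (blue). In the Gstm cluster all 7 isotype bars point down, from -0.99 for Gstm1 to -0.29 for Gstm4 in isotype mice, while between Cyp4f39 and Cyp4f15 the 3 other Cyp4f genes lie at 0.08 to 0.18. Whether the kept Gstm3 probe set lies in this cluster was not checked.

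Spread between mice of a group differed widely between members. The median standard deviation within a group and experiment was 0.14 over members and 0.12 over all genes. Sult1d1 (0.66), Cyp4a12b (0.49), Cyp1a1 (0.49) and Cyp2e1 (0.42) were the most variable members. Genes were ranked by how closely their levels followed a member over the 17 arrays, after subtraction of the experiment means, as a description over mice that share treatment groups. For Sult1d1, the largest fall, the 5 closest were Tmem212 (r = 0.96), Ankrd1 (0.95), Aqp4 (0.95), Cap2 (0.95) and Rgs22 (0.94), and the closest members were Gstz1 (0.87), Cyp2s1 (0.85) and Cyp4f15 (0.83). For Cyp4f18, the largest rise, they were Aqp9 (0.99), Cd300lb (0.99), Lilra6 (0.99), P2ry2 (0.98) and Syk (0.98), and the closest members were Cyp7b1 (0.92), Cyp11a1 (0.88) and Cyp4f14 (0.87).

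Other genes of xenobiotic metabolism, left out of the members by the symbol rule, were taken from lists by role. Some of them may still belong to the 5 families by their protein. Of 27 other phase 1 enzymes, 19 were lower, 3 higher and 5 did not pass in isotype against saline mice (median -0.42). Paraoxonase Pon1 (-3.13), carboxylesterase Ces2g (-1.15), epoxide hydrolase Ephx1 (-0.98) and aldehyde dehydrogenase Aldh3a1 (-0.77) were among the lower ones, and Cbr3 (0.43), Akr1b8 (0.37) and Pon2 (0.16) were the higher ones. In anti-RGMb against isotype mice 15 were higher, 2 lower (Cbr3 and Pon2) and 10 did not pass (median 0.35), with Pon1 at 2.12 and Ephx1 at 0.62. Against saline mice 6 were lower in anti-RGMb mice, none higher and 21 did not pass.

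Of 11 other phase 2 enzymes, Inmt (-0.59), Gnmt (-0.56), Mgst1 (-0.33) and Mgst3 (-0.21) were lower, and Hpgds, which makes prostaglandin D2 (0.83), and Tpmt (0.26) were higher in isotype mice. In anti-RGMb against isotype mice Inmt (0.49) and Mgst1 (0.25) were higher and Hpgds (-0.54) and Tpmt (-0.31) lower, and Gnmt (-0.35) was the one gene past the threshold against saline. Of 11 genes for redox partners and cofactors, Gclc, the rate-limiting subunit of glutathione synthesis, was higher (0.54) and Cyb5a (-0.34), Cyb5r3 (-0.36) and Gss (-0.22) were lower in isotype mice. Gclc was lower in anti-RGMb than in isotype mice (-0.40), and Cyb5r3 lower than in saline mice (-0.21). Of 12 transporters Abcb1b (0.43) was higher and Abcb1a (-0.68), Abcc3 (-0.42), Slc22a5 (-0.33) and Slco2a1 (-0.29) were lower. Abcb1a (0.44), Slc22a5 (0.28) and Slco2b1 (0.23) were higher in anti-RGMb than in isotype mice, and Abcb1a lower than in saline mice (-0.24).

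Transcription factors that induce these enzymes were read by their own RNA. Of 14, Ahr (-0.27), the glucocorticoid receptor Nr3c1 (-0.44) and Ppara (-0.32) were lower in isotype mice, none was higher and 11 did not pass, among them Nfe2l2 (-0.07), the activator at antioxidant response elements, and the xenobiotic receptors Nr1i2 (-0.05) and Nr1i3 (-0.02). Nr3c1 was higher in anti-RGMb than in isotype mice (0.30), and Ahr was lower than in saline mice (-0.23).

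Markers of lung cell types also differed between the groups, some lists lower and others higher, and are given as measured, on the same scale. The lung genes Sftpc and Scgb1a1 were in the brightest 1% of genes on all 17 arrays. A club cell list that holds no member of the 5 families was lower in 8 of 12 genes in isotype against saline mice, with Scgb3a2 at -1.52 and Scgb1a1, the defining secretoglobin, at -0.15. The mean over the list was -0.17 to 0.30 above saline in saline mice, -0.87 to -0.41 in isotype mice and -0.32 to 0.41 in anti-RGMb mice; Pon1, Aldh1a1 and Cbr2 also stand among the phase 1 enzymes above. All 8 ciliated cell markers were lower (list mean -0.08 to 0.13, -0.66 to -0.33 and -0.24 to 0.07 in the 3 groups). In isotype mice 7 of 8 endothelial genes, 5 of 6 alveolar type 1 genes, 5 of 8 alveolar type 2 genes and 6 of 10 fibroblast and smooth muscle genes were lower, and 1 endothelial gene and 2 of the fibroblast list were higher. Sftpc, the defining type 2 gene, did not pass (-0.08). Macrophage and monocyte markers were higher in 9 of 10 genes, eosinophil and mast cell markers in 7 of 7, T and B cell markers in 6 of 7 and goblet cell markers in 6 of 7. The macrophage and monocyte list mean was -0.23 to 0.14 in saline, 1.48 to 1.86 in isotype and 0.80 to 1.14 in anti-RGMb mice, and the eosinophil and mast cell mean -0.09 to 0.07, 2.15 to 2.66 and 0.97 to 2.05. In anti-RGMb against isotype mice the higher genes were 7 of 12 club cell, 7 of 8 ciliated cell, 6 of 8 endothelial, 5 of 6 alveolar type 1, 3 of 8 alveolar type 2, 6 of 10 fibroblast and smooth muscle, 4 of 8 heart muscle and 1 of 5 fat markers. The lower genes were 9 of 10 macrophage and monocyte, 3 of 7 eosinophil and mast cell, 4 of 7 T and B cell, 1 of 7 goblet cell, 1 of 7 liver and 1 of 10 fibroblast and smooth muscle markers. In anti-RGMb against saline mice 8 of 10 macrophage and monocyte, 5 of 7 eosinophil and mast cell, 2 of 7 T and B cell and 5 of 7 goblet cell markers were higher, 3 of 12 club cell, 1 of 8 ciliated cell and 1 of 8 endothelial markers were lower, and no marker of the other 6 lists passed. The part of these shifts in the members' differences was not tested.

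Tissue from outside the alveolar lung also varied. Heart and pulmonary vein muscle markers were lower in 7 of 8 genes in isotype against saline mice (list mean -0.57 to 1.09 in saline, -1.93 to -0.34 in isotype and -1.5 to 1.10 in anti-RGMb mice). Of 7 liver markers 1, Ahsg (0.56), was higher and none was lower (Alb -0.72, not past the threshold).

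**Figure D5:**
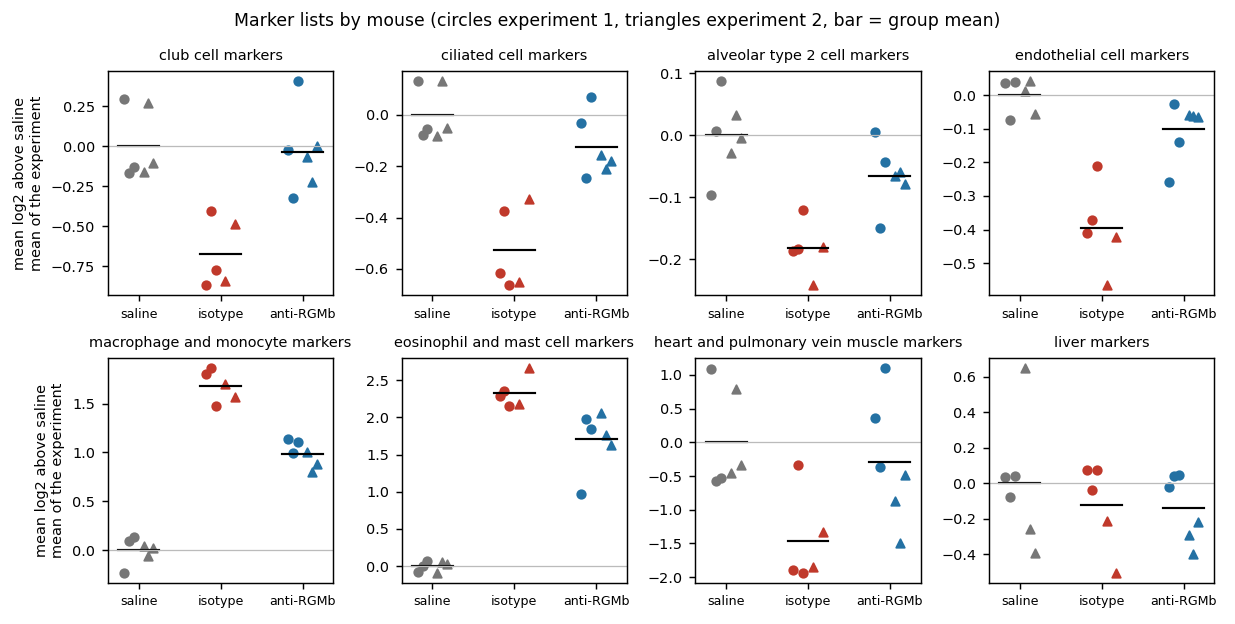
Mean log2 level of 8 marker lists in each mouse (y axis: above the saline mean of the same experiment; x axis: group; circles experiment 1, triangles experiment 2, bar the group mean). Club and ciliated cell lists are low and leukocyte lists high in isotype mice, with anti-RGMb mice at 0.80 to 1.14 for macrophage and monocyte markers against 1.48 to 1.86 in isotype mice.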

How the data were processed

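Total RNA of lung tissue was hybridised to Affymetrix Mouse Gene 1.0 ST arrays, 1 per mouse, and the labels name separate mice. The deposited values are linear intensity per probe set, which the authors obtained with RMA, per the submitters' processing notes (no version is given in the sources used here); the experiments differ in level, so every fit carries an experiment term. Of 24679 probe sets, 21354 had 1 gene symbol, 1275 several and 2050 none; the brightest was kept for the 893 genes with several. Here log2 was taken and limma 3.58.1 in R 4.3.3 fitted a mean per group and the experiment (residual df 13), with eBayes and Benjamini-Hochberg adjustment over 19751 genes, after being tested on simulated data. A fit with group means within each experiment gave the differences by experiment and their interaction.

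The text names, per comparison, the 10 largest rises and 10 largest falls among members that passed and whose sign was equal in each experiment, and members with well known roles (40 in all); 4 of those chosen names had no probe set of their own used here. It also names 13 other members past the threshold. Members and lists were chosen with earlier results of these data known. Mouse numbers were not taken as pairs: over 16 same-numbered pairs, deviations correlated at -0.60 to 0.30, and 3 exceeded 0.1. Alternatives were normalization, an offset of 32, a dim gene filter, averaged probe sets, other blocks, array weights, each experiment alone, each mouse left out and, added after seeing the data, the 3 arrays of weight under 0.5 left out together. Probe sequences were not used here, so cross-reading between close relatives is unknown. The number of arrays limits the precision.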

Additional observations from a re-analysis of the deposited data

Results flagged for a closer look

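In 159 groups of 5 or 6 mice, 5 had a mouse that stood apart from the rest by Dixon's criterion, which chance gives in about 1 in 20 groups. Cyp7b1 was 2.37 above saline in isotype mouse 2-2, against 1.46 to 1.68 in the other 4 isotype mice. Fmo5 was 0.24 in saline mouse 1-2, above the other saline mice. Gstt3 was -0.48 in isotype mouse 2-2, below the other isotype mice. Cyp4f14 was 0.23 in anti-RGMb mouse 2, above its group, and Sult2b1 was -0.28 in anti-RGMb mouse 2-2, below its group.

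The isotype minus saline difference of Cyp2j9 was larger in experiment 2 than in experiment 1, by -0.62 on the log2 scale (-1.09 against -0.47; limma interaction, adjusted p = 0.0309).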

How the results depend on the processing

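Without the experiment as a replicate block no member passed in any of the 3 comparisons (0 each), since the experiments differ in level. With mouse number as a replicate block 42, 29 and 8 members passed for isotype against saline, anti-RGMb against isotype, and anti-RGMb against saline mice, compared with 44, 30 and 12. Experiment 1 alone called 11 in anti-RGMb minus isotype, and the fit without the 3 arrays of low weight (isotype 2-2 at 0.24, anti-RGMb 3-2 at 0.26 and isotype 1-2 at 0.38, the others at 0.77 to 1.86), chosen after seeing the data, called 18. In anti-RGMb minus saline, experiment 1 alone called 3, experiment 2 alone 4 and array weights 21. Leaving out 1 mouse at a time gave 37 to 46, 24 to 32 and 7 to 18 members. Shares of all genes under these settings are not given here. In anti-RGMb minus saline 33.3% of called members were higher, against 13.3% without the dimmest 40% of genes and 50% with the mouse number block. Quantile normalization, the offset and averaged probe sets kept each count within 1.5 times. No called value changed sign under any setting run; 91 values that had not passed did, in 22 of 159 named results. Of the members, 66 were dim on every array, where a difference in RNA is hard to see.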
